A study of Mus musculus with 20 samples.

Results

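Voltage-gated calcium channel genes were examined in sorted nuclei of mouse spinal cord. The members were the 10 genes of a given list, found by symbol in a table of 43629 genes, and all 10 were present. They are 8 genes for the pore-forming alpha-1 subunit and 2 for the cytoplasmic beta subunit. The alpha-1 genes comprise Cacna1c and Cacna1d (L-type, Cav1), Cacna1a, Cacna1b and Cacna1e (Cav2) and Cacna1g, Cacna1h and Cacna1i (T-type, Cav3). The beta genes are Cacnb2 and Cacnb4. RNA was sequenced after sorting for NeuN, a nuclear protein of neurons, into a positive and a negative fraction, the negative one drawn largely from glia and other cells. The mice either had experimental autoimmune encephalomyelitis (EAE), in which an immune attack inflames brain and spinal cord, and were sampled on day 15 after active immunization, or were healthy. This gave 4 groups of 5 libraries each: EAE and healthy NeuN-positive nuclei, and EAE and healthy NeuN-negative nuclei. The sources used here give no strain, sex or age and do not state whether each library came from a separate mouse, so p-values measure the spread between these libraries, which may in part be technical.

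Voltage-gated calcium channels open when the membrane depolarizes and let calcium into the cell. The alpha-1 subunit holds the pore and the voltage sensor and sets the channel class: Cav2 channels trigger transmitter release at nerve terminals, L-type channels serve cell bodies and dendrites and couple activity to transcription, and T-type channels open near the resting potential and shape firing. L-type and Cav2 alpha-1 subunits bind a beta subunit, which aids their transport to the membrane and sets their gating, whereas T-type channels do not need one. In spinal cord, Cav2.2 (Cacna1b) and Cav3.2 (Cacna1h) are studied for their part in pain signalling.

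Total counts per library ran from 3149209 to 37689267. Rbfox3, which encodes NeuN, stood at 193 ± 58.3 CPM in EAE and 312 ± 33.1 CPM in healthy NeuN-positive nuclei, and at 29.6 ± 15.8 and 29.6 ± 10.7 CPM in EAE and healthy NeuN-negative nuclei (SD, n = 5), and every NeuN-positive library was above every NeuN-negative one. CPM are counts relative to the library total, with TMM scaling over all 20 libraries, and levels of different genes are compared as CPM per kb of annotated exon. Mitochondrially encoded transcripts took 3.61% ± 3.68 of the counts in EAE and 0.91% ± 1.2 in healthy NeuN-positive libraries (p = 0.167), and 7.89% ± 4.77 and 1.78% ± 1.67 in EAE and healthy NeuN-negative libraries (p = 0.0159, 0.0954 after adjustment), by two-sided exact permutation, for which the smallest possible p is 0.00794. The NeuN-positive libraries EAE 2 (9.35%), EAE 4 (5.3%) and healthy 3 (3%) stood above the rest, so tests are also given without these 3 libraries and their NeuN-negative partners of the same number (3 pairs), a choice made after the data were seen. The NeuN-positive libraries kept had 1.08 to 1.22% in EAE and 0.197 to 0.833% in healthy mice. Among the NeuN-negative ones kept, the shares were 2.18 to 7.94% and 0.367 to 2.03%. Every EAE library kept thus still stood above every healthy one of its sort. With this omission, EAE and mitochondrial share cannot be told apart.

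The T-type gene Cacna1g had the highest mean level of the 10 in NeuN-positive nuclei in both conditions, at 42.2 ± 12.4 CPM per kb in EAE and 68 ± 8.26 CPM per kb in healthy mice (SD, n = 5). In EAE NeuN-positive nuclei Cacna1i followed at 29.7 ± 8.39, then Cacna1b at 22.9 ± 7.35, Cacna1a at 18.2 ± 6.89 and Cacna1e at 18 ± 4.57 CPM per kb. Among these 5 genes, the range of each overlapped that of the next in this order. A gap followed Cacna1e, and the remaining genes ran from Cacnb4 (8.61 ± 0.742 CPM per kb) over Cacna1h (6.35 ± 3.89), Cacnb2 (6.12 ± 1.63) and Cacna1c (5.26 ± 2.52) to Cacna1d (3.33 ± 1.58), again each overlapping its neighbour. In healthy NeuN-positive nuclei Cacna1g stood clear of Cacna1b at 35.4 ± 2.18 CPM per kb. Cacna1a (31.7 ± 3.36), Cacna1e (24.4 ± 4.53), Cacna1i (22.5 ± 7.94) and Cacna1h (21.8 ± 2.22) followed with overlapping ranges, and Cacnb4 (10.3 ± 2.38), Cacna1c (9.52 ± 0.864), Cacna1d (7.08 ± 1.63) and Cacnb2 (4.84 ± 0.647) were lower. Cacna1h thus held the 7th place in EAE and the 6th in healthy NeuN-positive nuclei. These orders rest on the division by annotated exon length. By CPM alone, Cacna1e (455 ± 115) was above Cacna1g (428 ± 126) in EAE NeuN-positive nuclei. In healthy ones Cacna1g (689 ± 83.7) was above Cacna1e (614 ± 114).

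The 8 alpha-1 genes together stood at 146 ± 34.3 CPM per kb in EAE and 220 ± 16.4 CPM per kb in healthy NeuN-positive nuclei, with 87.8 to 177 in the EAE and 193 to 234 in the healthy libraries and no overlap. In NeuN-negative nuclei the sums were 22.2 ± 3.85 CPM per kb in EAE and 24.7 ± 2.73 CPM per kb in healthy mice. The T-type genes made up 54.4% ± 5.73 of the alpha-1 sum in EAE and 50.8% ± 3.26 in healthy NeuN-positive nuclei. The Cav2 genes made up 39.9% ± 4.45 and 41.6% ± 1.85, and the L-type genes 5.67% ± 1.55 and 7.6% ± 1.45, in EAE and healthy NeuN-positive nuclei. These class shares are descriptions without a test, and the ranges of EAE and healthy libraries overlapped for each class.

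**Figure D1:**
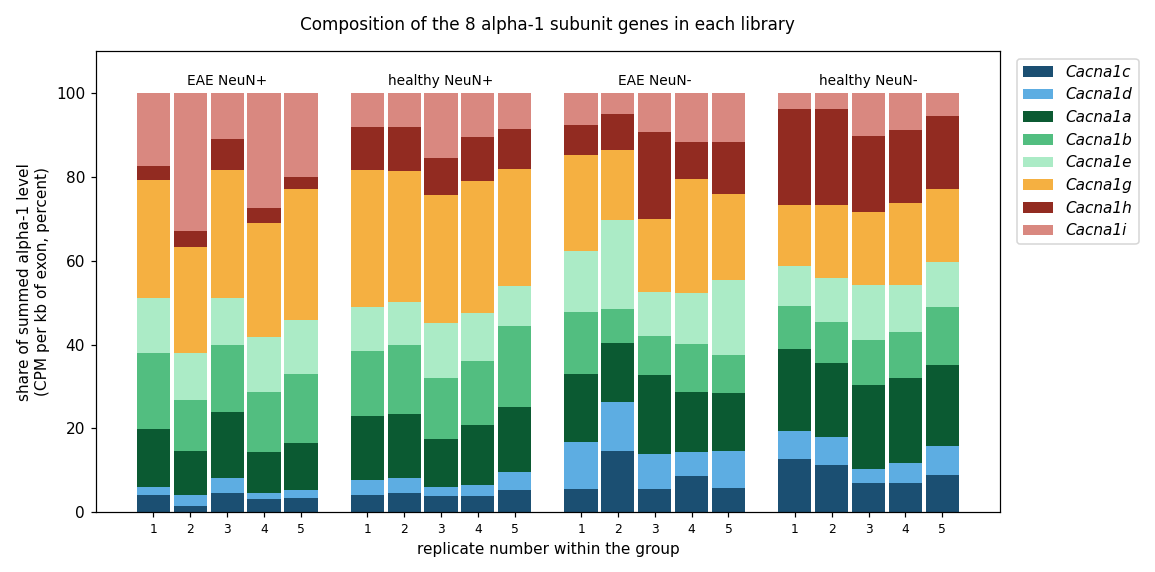
Share of each alpha-1 gene in the summed alpha-1 level (CPM per kb of exon, percent, vertical axis) in each library, by group (EAE left of healthy within each sort) and replicate number (horizontal axis). The dark red Cacna1h band is thinner in the 5 EAE NeuN-positive libraries than in the healthy ones, and the light red Cacna1i band is wider in all EAE NeuN-positive libraries but EAE 3 than in any healthy one.

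Within the NeuN-negative nuclei the order was different, because Cacnb4 led in healthy mice. Cacnb4, the beta subunit gene whose loss causes the lethargic mouse phenotype, stood at 20.5 ± 6.42 CPM per kb in healthy NeuN-negative nuclei, clear of Cacna1h at 4.85 ± 0.388 and the other 8 genes down to Cacnb2 at 1.12 ± 0.256 CPM per kb. In EAE NeuN-negative nuclei no gene stood clear of the next in the order, which ran from Cacna1g (4.69 ± 1.58 CPM per kb) and Cacnb4 (4.03 ± 2.26) to Cacnb2 (1.49 ± 0.837).

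**Figure D2:**
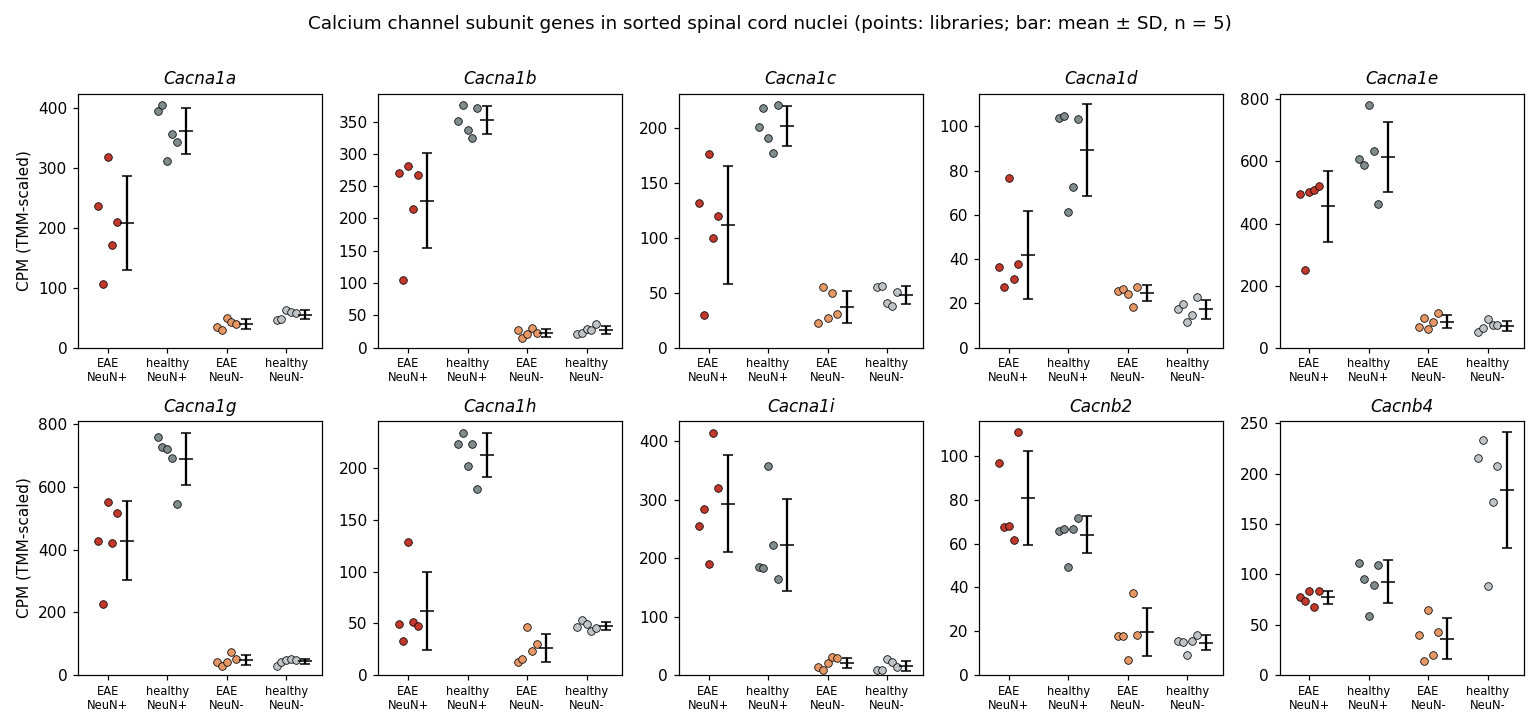
CPM (vertical axes, from 0, scaled separately for each gene) of the 10 genes in each library, in EAE and healthy NeuN-positive (NeuN+) and EAE and healthy NeuN-negative (NeuN-) nuclei, with the mean and SD of 5 libraries. All EAE NeuN-positive libraries lie below the healthy ones for Cacna1h, and all EAE NeuN-negative libraries lie below the healthy ones for Cacnb4.

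The difference between the sorts was tested with edgeR's quasi-likelihood test within each condition, with Benjamini-Hochberg adjustment over all genes tested. This fit did not pair the sorts by replicate number. An adjusted p under 0.05 made a call, and the error given beside a log2 fold change is its standard error. In EAE mice 9 of the 10 genes were higher in NeuN-positive nuclei, where 15.5% of the 17982 genes tested were called higher, and 0 were lower, where 14.8% were called lower (0 lower at an unadjusted p under 0.05, against 22.2% of all genes). The DESeq2 Wald test and voom also called 0 lower, against 22.6% and 25.6% of all genes. In healthy mice 9 were higher and 1 lower, against 22.8% and 23% of the 17134 genes tested. With the replicate number as a block, which pairs the sorts, more of all genes were called. These were 20% higher and 17.8% lower in EAE mice, and 33.2% and 32.5% in healthy mice. In EAE mice 8 genes had every NeuN-positive library above every NeuN-negative one, as had 12.2% of all genes tested, and in healthy mice 9 had, against 16.6%. The largest difference in EAE mice was that of Cacna1i, 293 ± 82.8 CPM in NeuN-positive and 20.5 ± 9.3 CPM in NeuN-negative nuclei (log2 fold change 3.72 ± 0.41, adjusted p = 1.34e-05). In healthy mice it was that of Cacna1g, 689 ± 83.7 CPM in NeuN-positive and 43.4 ± 8.06 CPM in NeuN-negative nuclei (4.01 ± 0.23, adjusted p = 2.75e-07). Cacna1b, which encodes the N-type channel of nerve terminals, was higher by 3.22 ± 0.37 in EAE (adjusted p = 1.89e-05) and by 3.7 ± 0.21 in healthy mice (adjusted p = 2.75e-07).

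The exceptions were Cacna1d in EAE and Cacnb4 in healthy mice. Cacna1d, an L-type gene whose channel opens at lower voltages than that of Cacna1c, stood at 42 ± 19.9 CPM in NeuN-positive and 24.6 ± 3.54 CPM in NeuN-negative nuclei of EAE mice, a log2 fold change of 0.70 ± 0.33 that was not called (adjusted p = 0.12), although the groups did not overlap. It was called in 2 of 19 alternatives, among them the fit without the 3 pairs of high mitochondrial share (0.94, adjusted p = 0.0373). It was not called in 17, and the values ran from 0.38 to 0.98 (adjusted p up to 0.409). In healthy mice its log2 fold change was 2.41 ± 0.22, and it was called (adjusted p = 3.25e-06). In healthy mice Cacnb4 was lower in NeuN-positive nuclei, at 92.5 ± 21.4 CPM, than in NeuN-negative nuclei, at 183 ± 57.5 CPM (-0.93 ± 0.24, adjusted p = 0.00639). In EAE mice it was higher in NeuN-positive nuclei, at 77.2 ± 6.65 CPM, than in NeuN-negative nuclei, at 36.1 ± 20.3 CPM (1.04 ± 0.35, adjusted p = 0.0331). In EAE mice the sort calls of Cacna1h (1.20 ± 0.42, adjusted p = 0.0402) and Cacnb4 were lost in 10 and 8 of 19 alternatives. Both were lost on leaving out NeuN-negative EAE 1, 2, 4 or 5 or NeuN-positive EAE 1, 3 or 5 (0.75 to 1.34 for Cacna1h and 0.86 to 1.12 for Cacnb4, with adjusted p up to 0.171 and 0.0795). That of Cacna1h was also lost without the 3 pairs of high mitochondrial share (1.30, adjusted p = 0.0571), and that of Cacnb4 with the mitochondrial share as a covariate (0.73, adjusted p = 0.0611). That covariate also ended the call of Cacna1c (1.48 ± 0.44, adjusted p = 0.0177; with it 1.63, adjusted p = 0.0523), its sole loss in 19 alternatives.

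In NeuN-positive nuclei 2 of the 10 genes fell in EAE, where 3.68% of the 16675 genes tested were called lower, and 0 rose, where 6.55% were called higher (0 higher at an unadjusted p under 0.05, against 15.1% of all genes, 0 with DESeq2 and 2 with voom). The 2 that fell were the T-type gene Cacna1h and the L-type gene Cacna1d. In all, 8 of the 10 log2 fold changes were below 0, with a median of -0.59 against -0.03 over all genes tested. A lean of this size was not particular to the channel genes. In the same test the medians were -0.68 for markers of inhibitory and -0.86 for those of excitatory neurons. Those of motor neurons and of neurons in general were -0.01 and 0.16. The median of the 8 alpha-1 genes was -0.67, and without the 3 pairs of high mitochondrial share it was -0.36 against 0.01 over all genes. The median of the 2 beta genes was 0.12, and 0.18 without them. At an unadjusted p under 0.05, 6 of the 10 genes were lower in EAE, as were 13.7% of all genes tested. Without EAE 3 the number called lower was 4, with Cacna1a (-0.92, adjusted p = 0.017) and Cacna1c (-1.01, adjusted p = 0.0493) joining, and over all genes tested 8.64% (1462 genes) were then lower. Of the 10 genes 3 had all EAE libraries below all healthy ones, a pattern that 4.74% of all genes tested showed.

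Cacna1h had 49.5, 32.8, 129, 51 and 47.8 CPM in EAE NeuN-positive libraries 1 to 5, against 224, 234, 202, 224 and 180 CPM in healthy ones. EAE 3 was the highest of its group, yet every EAE library was below every healthy one. The log2 fold change was -1.71 ± 0.31 (adjusted p = 0.00286), which held in all 19 alternatives, from -2.15 without EAE 3 to -1.39 without the 3 pairs of high mitochondrial share (adjusted p = 0.0306). Set against Rbfox3 in the same library, the log2 ratio of CPM was -1.75 ± 0.44 in EAE and -0.55 ± 0.07 in healthy NeuN-positive nuclei (SD, n = 5), again without overlap. Fewer nuclei of a type and less RNA per nucleus cannot be told apart in these bulk libraries.

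The other T-type genes were not called by edgeR, whereas voom called Cacna1g lower (-0.63, adjusted p = 0.00109) and Cacna1i higher (0.62, adjusted p = 0.00481). Voom called 23.3% of all genes lower and 22.9% higher in these nuclei. Cacna1g, whose channel supports rhythmic burst firing, had 428, 226, 550, 420 and 517 CPM in EAE against 758, 728, 721, 692 and 545 CPM in healthy NeuN-positive libraries, and only EAE 3 reached the lowest healthy library. Its log2 fold change was -0.62 ± 0.24 (adjusted p = 0.107). Cacna1i, whose channel gates more slowly than the other T-type channels, had 256, 284, 190, 414 and 320 CPM in EAE against 185, 183, 357, 222 and 164 CPM in healthy libraries, which overlapped widely (0.48 ± 0.28, adjusted p = 0.282). Among the 3 T-type genes, Cacna1h made up 6.93, 6.18, 15.2, 5.89 and 5.53% of the summed CPM per kb in EAE libraries, against 19.7, 21, 16.2, 20.1 and 20.8% in healthy ones. Every EAE share was below every healthy share, with EAE 3 the closest to the healthy libraries. The Cacna1i share was 38.9% ± 11.8 in EAE and 19.8% ± 4.98 in healthy libraries, with overlap through EAE 3 and healthy 3. On this scale Cacna1h and Cacna1i were level in healthy NeuN-positive nuclei (log2 ratio of Cacna1h to Cacna1i 0.01 ± 0.47), and in EAE nuclei the ratio was -2.35 ± 1.05.

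Of the L-type genes, Cacna1d had 36.5, 27.6, 76.8, 31.2 and 37.9 CPM in EAE against 104, 105, 61.4, 72.8 and 103 CPM in healthy NeuN-positive libraries. EAE 3 lay above the healthy libraries 3 and 4, and the other EAE libraries lay below all healthy ones. Set against Rbfox3 in the same library, its log2 ratio of CPM was -2.25 ± 0.43 in EAE and -1.83 ± 0.38 in healthy NeuN-positive nuclei (SD, n = 5), with overlap. The log2 fold change of -1.01 ± 0.28 (adjusted p = 0.034) was called in 8 of 19 alternatives and lost in 11. Among these were the fit without the 3 pairs of high mitochondrial share (-0.81, adjusted p = 0.0953) and the mitochondrial share as a covariate (-0.74, adjusted p = 0.145). The omission of any library but EAE 3 and healthy 3 also ended the call (adjusted p = 0.0502 to 0.0865). So did the replicate block (-1.09, adjusted p = 0.0588). Here that block joins EAE and healthy libraries of equal number, a link the labels do not give. Cacna1c, the more widely expressed L-type gene, had 132, 30.2, 176, 99.8 and 120 CPM in EAE against 201, 218, 191, 177 and 221 CPM in healthy libraries. The groups did not overlap, EAE 2 was far below the others, and the change of -0.79 ± 0.32 was not called by edgeR (adjusted p = 0.126), whereas voom called it (-0.70, adjusted p = 0.00312). Cacna1d made up 40.7% ± 11.8 of the summed L-type level in EAE and 42.2% ± 4.5 in healthy libraries.

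Of the Cav2 genes, Cacna1a (P/Q-type) had 235, 106, 318, 171 and 209 CPM in EAE against 394, 404, 310, 356 and 343 CPM in healthy NeuN-positive libraries, with EAE 3 alone within the healthy range (-0.73 ± 0.24, adjusted p = 0.0717). Cacna1b (N-type) had 271, 105, 281, 214 and 268 CPM in EAE against 351, 375, 336, 325 and 371 CPM in healthy libraries, with no overlap (-0.56 ± 0.24, adjusted p = 0.139). Cacna1e (R-type) had 494, 250, 502, 509 and 522 CPM in EAE against 607, 589, 782, 632 and 462 CPM in healthy libraries, where healthy 5 lay below 4 EAE libraries (-0.36 ± 0.24, adjusted p = 0.332). None of the 3 passed the threshold with edgeR, and their intervals of the log2 fold change were -1.21 to -0.25, -1.02 to -0.09 and -0.84 to 0.11 (95%, from the standard error). Voom called Cacna1a (-0.75, adjusted p = 0.00035) and Cacna1b (-0.43, adjusted p = 0.0134) lower, and the DESeq2 Wald test Cacna1a (-0.72, adjusted p = 0.0381). EAE 2, a library of high mitochondrial share, was the lowest EAE library for 7 of the 8 alpha-1 genes.

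The beta subunit genes were not called by edgeR in NeuN-positive nuclei, and voom called Cacnb2 higher (0.56, adjusted p = 0.00279). Cacnb2, also a main beta subunit gene of the heart, had 96.7, 67.6, 68, 61.5 and 111 CPM in EAE against 65.9, 66.7, 49.3, 66.7 and 71.7 CPM in healthy libraries (0.42 ± 0.21, adjusted p = 0.204). Cacnb4 had 78, 73.4, 83.2, 67.9 and 83.6 CPM in EAE against 111, 95, 58.3, 89 and 109 CPM in healthy libraries (-0.17 ± 0.20, adjusted p = 0.597). The groups overlapped for both genes.

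**Figure D3:**
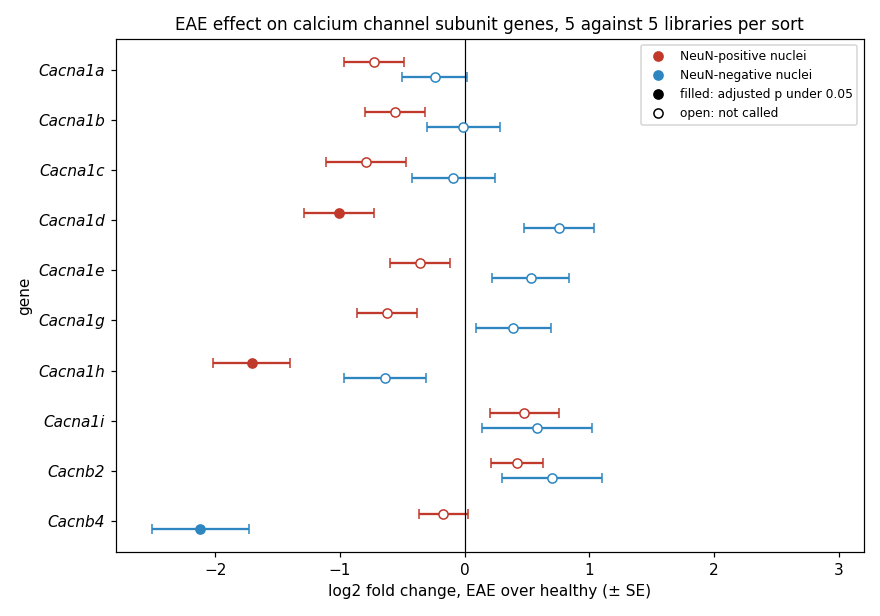
Log2 fold change of EAE over healthy (horizontal axis, ± SE) of the 10 genes in NeuN-positive (red) and NeuN-negative (blue) nuclei, filled where the adjusted p was under 0.05. Cacna1h (-1.71) and Cacna1d (-1.01) are filled in NeuN-positive nuclei and Cacnb4 (-2.12) in NeuN-negative nuclei.

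Markers of other cells moved in the same NeuN-positive libraries. Of the monocyte and macrophage markers 9 of 9 were higher in EAE, with a summed level of 316 to 1912 CPM in EAE and 7.9 to 30.7 CPM in healthy libraries. Microglia markers were higher for 5 of 9 (145 to 254 CPM in EAE, 25.6 to 50.1 CPM in healthy libraries), those of neutrophils for 4 of 4 tested (14.6 to 122 and 1.62 to 6.24 CPM) and those of T cells for 5 of 6 tested (20.2 to 81.5 and 6.05 to 12.9 CPM). Of 12 general markers of neurons edgeR called 0 (2 higher and 2 lower at an unadjusted p under 0.05), and their summed level was 38316 to 65723 CPM in EAE and 35246 to 59079 CPM in healthy libraries. Rbfox3, 1 of these 12, made up little of that sum, at 116 to 263 CPM in EAE and 262 to 349 CPM in healthy libraries. The sum therefore does not measure the share of neurons. Markers of inhibitory neurons fell for 2 of 6 (170 to 247 CPM in EAE, 276 to 603 CPM in healthy libraries) and those of excitatory neurons for 2 of 6 (128 to 192 and 201 to 273 CPM), against 1 of 6 each without the 3 pairs. Oligodendrocyte markers were higher for 1 of 10 (10758 to 97889 CPM in EAE, 3648 to 44271 CPM in healthy libraries) and astrocyte markers for 1 of 8 (547 to 1292 and 416 to 689 CPM). No marker of these lists was at 0 in all libraries of a group. The part of these shifts, of the depth and of the mitochondrial share in the falls of Cacna1h and Cacna1d was not tested beyond the fits given above.

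In NeuN-negative nuclei 1 of the 10 genes fell in EAE, where 12.6% of the 17604 genes tested were called lower, and 0 rose, where 15.1% were called higher (1 higher at an unadjusted p under 0.05, against 22.1% of all genes). The DESeq2 Wald test called 1 higher, against 20.7% of all genes, and voom 3, against 25.7%. The gene that fell with edgeR was Cacnb4. Its levels were 40.1, 13.5, 64.4, 19.8 and 42.8 CPM in EAE NeuN-negative libraries 1 to 5, against 215, 233, 88.5, 172 and 208 CPM in healthy ones. Healthy 3 was the lowest healthy library and still above every EAE library, and 11.5% of all genes tested showed such a gap downwards. The log2 fold change was -2.12 ± 0.39 (adjusted p = 0.000966). The call held in all 19 alternatives, from -2.46 to -1.21, the smallest being that with the mitochondrial share as a covariate (adjusted p = 0.0313), and the value without the 3 pairs of high mitochondrial share was -1.83 (adjusted p = 0.000265). The log2 ratio of Cacnb4 to Cacnb2, per kb, was 1.72, 0.17, 3.79, -0.36 and 1.79 in EAE against 4.33, 4.5, 3.84, 4.04 and 4.07 in healthy NeuN-negative libraries, so every EAE library was below every healthy one, EAE 3 only just.

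Some markers of glial cells, but not all, fell with Cacnb4 in these libraries. Oligodendrocyte markers were lower in EAE for 6 of 10, for example the myelin genes Opalin (-3.54 ± 0.42, adjusted p = 2.44e-05) and Mog (-2.45 ± 0.53, adjusted p = 0.0032). At an unadjusted p under 0.05, 1 of the 10 was higher, and without the 3 pairs 1 was called higher. The summed oligodendrocyte level did not fall, with a mean of 64944 ± 30445 CPM in EAE and 51737 ± 11172 CPM in healthy libraries (SD, n = 5). Its ranges overlapped, at 32172 to 112088 CPM in EAE and 41130 to 70554 CPM in healthy libraries. Markers of oligodendrocyte precursors fell for 4 of 6, with sums of 123 to 284 CPM in EAE and 348 to 745 CPM in healthy libraries, and those of astrocytes for 2 of 8, with sums of 935 to 2880 and 1847 to 4390 CPM. Markers of monocytes and macrophages were higher for 9 of 9 (743 to 2525 CPM in EAE, 60.7 to 113 CPM in healthy libraries) and those of T cells for 9 of 9 (106 to 254 and 5.63 to 12.3 CPM). Neutrophil markers were higher for 4 of 5 tested (107 to 474 CPM in EAE, 84.9 to 133 CPM in healthy libraries), those of pericytes and smooth muscle for 3 of 8, of microglia for 2 of 9 (447 to 1769 and 602 to 776 CPM, 6 of 9 without the 3 pairs) and of endothelium for 1 of 8. Of the 12 general markers of neurons 1 was lower. No marker of these lists was at 0 in all libraries of a group, and the part of these shifts in the fall of Cacnb4 was not tested.

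The other 9 genes were not called by edgeR in NeuN-negative nuclei, whereas voom called Cacna1d (0.67), Cacna1e (0.77) and Cacna1i (1.42) higher and Cacna1c (-0.59) and Cacna1h (-0.76) lower. Voom called 25.7% of all genes higher and 25.9% lower in these nuclei. With edgeR the log2 fold changes of the 9 genes ran from -0.64 ± 0.33 for Cacna1h (adjusted p = 0.148) to 0.76 ± 0.28 for Cacna1d (adjusted p = 0.0519). Cacna1h had 13.1, 15.4, 46.6, 23.2 and 30.3 CPM in EAE against 46.4, 52.9, 49, 43 and 45.3 CPM in healthy libraries, where EAE 3 alone reached the healthy range. It was called lower in 3 of 19 alternatives, one of them without EAE 3 (-0.98, adjusted p = 0.0309). Cacna1d had 25.7, 26.7, 24.5, 18.5 and 27.4 CPM in EAE against 17.7, 19.8, 11.8, 14.7 and 22.7 CPM in healthy libraries, and the groups overlapped through EAE 4. It was called higher in 4 of 19 alternatives, for example with DESeq2 size factors (0.80, adjusted p = 0.0426). The members' median was 0.19, against 0.05 over all genes tested. Levels here are scaled over all 20 libraries and fold changes over the 10 libraries of the sort, so the CPM of a gene can lean lower in EAE than its fold change does: Cacna1a stood at 39.2 ± 8.04 CPM in EAE and 54.8 ± 7.65 CPM in healthy libraries, with a fold change of -0.24 ± 0.26.

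Whether the effect of EAE differed between the sorts was tested directly, as the EAE effect in NeuN-positive minus that in NeuN-negative nuclei over all 20 libraries. The test called 2 of the 10 genes, 1 in each direction, where 1.74% of the 20444 genes tested were called higher and 0.822% lower (1.15% each way with DESeq2 size factors). Cacnb4 had a difference of 2.07 ± 0.48 (adjusted p = 0.0219), its fall being in NeuN-negative nuclei. The call held in 22 of 28 alternatives, at 1.58 to 2.41, and without the 3 pairs of high mitochondrial share the value was 1.58 (adjusted p = 0.00997). Cacna1d had a difference of -1.58 ± 0.42 (adjusted p = 0.0393), with opposite signs in the sorts, and was called in 12 of 28 alternatives, also without the 3 pairs (-1.55, adjusted p = 0.0337). Leaving out a single library ended the call of Cacna1d for 15 of the 20 libraries, all but the 4 with replicate number 3 and healthy NeuN-negative 5 (-1.71 to -1.47, adjusted p = 0.0507 to 0.11). It ended that of Cacnb4 for 6, which were NeuN-positive EAE 2, 4 and 5 and healthy 2 and NeuN-negative healthy 1 and 2 (1.84 to 2.11, adjusted p = 0.0527 to 0.0849). For Cacna1h the difference was -0.91 ± 0.48 (adjusted p = 0.318), with a 95% interval of -1.85 to 0.03, in this fit, which does not pair the sorts. Of 28 alternatives 2 called Cacna1h. With the replicate number as a block, which pairs both sorts of a number, it was called (-0.91, adjusted p = 0.039). That block called 9.74% of all genes higher and 2.45% lower. Whether the EAE effect on Cacna1h differed between the sorts thus depended on the fit. The median over all genes was 0.15 in this comparison and -0.11 with DESeq2 size factors, under which Cacnb4 (1.86) and Cacna1d (-1.86) kept their directions and calls.

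Both of these genes have several annotated starts. RefSeq (GRCm38.p6) gave start windows for 7 of the 10 genes, 13 in all, and those shown are the only ones of Cacna1d (1 of 2) and Cacnb4 (1 of 3) without annotated exon bases in the 250 bases before the start. These genes were chosen because they had an EAE effect that differed between the sorts. They lie within the annotated spans of the genes, at chr14:30353487-30353736 (minus strand) for Cacna1d and chr2:52558612-52558861 (minus strand) for Cacnb4, and read 5′ to 3′ towards the start. Capitals mark GGGCGG, the letters of the GC box bound by Sp1, on either strand.
Cacna1d start 2: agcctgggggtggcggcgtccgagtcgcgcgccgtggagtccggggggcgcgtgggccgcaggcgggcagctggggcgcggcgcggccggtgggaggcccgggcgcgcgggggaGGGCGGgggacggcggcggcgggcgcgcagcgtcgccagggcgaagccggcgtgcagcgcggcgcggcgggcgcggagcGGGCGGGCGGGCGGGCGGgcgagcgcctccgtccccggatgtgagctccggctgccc
Cacnb4 start 3: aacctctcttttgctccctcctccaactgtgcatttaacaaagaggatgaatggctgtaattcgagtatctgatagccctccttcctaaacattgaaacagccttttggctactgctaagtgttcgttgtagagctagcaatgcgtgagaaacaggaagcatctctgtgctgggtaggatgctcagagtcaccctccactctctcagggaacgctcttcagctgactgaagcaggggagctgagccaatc
The Cacna1d window held 86.4% G and C, 50 CpG pairs and 5 matches of GGGCGG. Matches were counted at every position, and some of these overlap, so they are not all separate GC boxes. The Cacnb4 window held 48.8% G and C, 4 CpG pairs and 0 such matches. The windows not shown differed from these: that of Cacna1d start 1 held 39.6% G and C, 0 matches of GGGCGG and 3 of TATAAA, and those of Cacnb4 starts 1 and 2 held 79.6% and 71.2% G and C with 6 and 0 matches of GGGCGG. No contrast between the 2 genes is read from the windows. Over all 32851 windows in the table the median was 52.4% G and C, and 32.7% held at least 1 GGGCGG. The letters TATAAA, in 12.4% of all windows, were in neither of the windows shown. Counts per gene do not tell which start was used, and these letters are a description of the sequence only.

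The other subunit genes of the family were tested alongside, 16 in all with the remaining alpha-1, beta, alpha-2-delta and gamma genes. For this list and those below, the shares over all genes tested stand beside the counts. In EAE 6.55% were called higher and 3.68% lower in NeuN-positive nuclei, and 15.1% and 12.6% in NeuN-negative nuclei. Without the 3 pairs of high mitochondrial share these were 7.21% and 1.83%, and 17.4% and 12.3%. In NeuN-positive nuclei 0 of the 14 tested rose in EAE (1 higher at an unadjusted p under 0.05) and 4 fell, with a median log2 fold change of -0.61. These were Cacnb3, a beta subunit gene of Cav2 channels, at 80.3 ± 41.8 CPM in EAE and 227 ± 72.9 CPM in healthy nuclei (-1.43 ± 0.34, adjusted p = 0.0171), and Cacng7 (-1.85 ± 0.45, adjusted p = 0.0196), Cacng8 (-1.34 ± 0.32, adjusted p = 0.019) and Cacng5 (-0.82 ± 0.24, adjusted p = 0.0425). The 3 gamma genes encode auxiliary proteins of AMPA-type glutamate receptors. The alpha-2-delta genes encode extracellular subunits, of which those of Cacna2d1 and Cacna2d2 bind gabapentin, and none was called: Cacna2d1 had -0.58 ± 0.22, Cacna2d2 -1.01 ± 0.32, Cacna2d3 -0.65 ± 0.26 and Cacna2d4 0.65 ± 0.54. Uncalled were also Cacna1f (1.23 ± 0.47), Cacnb1 (0.01 ± 0.23), Cacng1 (1.84 ± 0.96), Cacng2 (0.35 ± 0.27), Cacng3 (-1.83 ± 0.64) and Cacng4 (-0.14 ± 0.58). Without the 3 pairs of high mitochondrial share 2 of 14 were lower.

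In NeuN-negative nuclei 15 of the 16 were tested, with a median of 0.29. Cacnb1, the beta subunit gene known from skeletal muscle, fell to 34.4 ± 17 CPM in EAE, against 117 ± 42.4 CPM in healthy nuclei (-1.59 ± 0.42, adjusted p = 0.011), and Cacng7 fell as well (-1.80 ± 0.40, adjusted p = 0.00414). Cacna1f, an L-type gene of the retina and of some immune cells, rose by 3.51 ± 0.84 (adjusted p = 0.00654), at 11.4 ± 9.68 CPM in EAE and 1.27 ± 1.6 CPM in healthy nuclei, and Cacng5 by 1.73 ± 0.61 (adjusted p = 0.0461). Uncalled were Cacna1s (2.85 ± 1.14), Cacnb3 (0.32 ± 0.37), Cacna2d1 (0.44 ± 0.41), Cacna2d2 (-0.29 ± 0.33), Cacna2d3 (-0.48 ± 0.33), Cacna2d4 (-1.27 ± 0.47), Cacng1 (1.37 ± 1.21), Cacng2 (0.29 ± 0.35), Cacng3 (0.67 ± 0.57), Cacng4 (-0.65 ± 0.55) and Cacng8 (0.02 ± 0.65). Without the 3 pairs of high mitochondrial share 2 of 14 were higher and 3 lower, with a median of 0.02. In the test of the difference of EAE effects between the sorts edgeR called 1 of the 16, Cacng5 (-2.29 ± 0.61, adjusted p = 0.0405), and without those pairs 1 was higher and 1 lower. Over all genes 1.83% were higher and 1.82% lower in that test without the pairs.

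Of the genes that act with the channels, regulators of the channels had 1 of 9 lower and 0 higher in EAE NeuN-positive nuclei (0 higher at an unadjusted p under 0.05), namely Stac (-1.70 ± 0.37, adjusted p = 0.0105), an adaptor of L-type channels. Their median was -0.69, and without the 3 pairs of high mitochondrial share 0 of 9 were lower (median -0.61), so the call of Stac was lost. In NeuN-negative nuclei 1 of 10 was lower, Cachd1 (-1.60 ± 0.31, adjusted p = 0.00142), an alpha-2-delta-like protein gene, and without those pairs 1 was higher and 1 lower. Presynaptic partners of Cav2 channels fell for 4 of 20 in NeuN-positive nuclei, with a median of -0.41 (2 of 20 and -0.19 without the 3 pairs of high mitochondrial share). Among them were Unc13a, a vesicle priming gene, at 344 ± 157 CPM in EAE and 892 ± 173 CPM in healthy nuclei (-1.32 ± 0.31, adjusted p = 0.016), Rimbp2, whose product links channels to release sites (-1.53 ± 0.36, adjusted p = 0.0173), and Stx1a, a SNARE gene (-1.20 ± 0.30, adjusted p = 0.0213). In NeuN-negative nuclei 2 of 20 fell, Nrxn2 (-1.07 ± 0.32) and Stx1a (-0.94 ± 0.32), against 1 of 20 without the 3 pairs. Over all genes tested in that sort 12.6% were called lower. None of the 20 rose in either sort (1 and 2 higher at an unadjusted p under 0.05 in NeuN-positive and NeuN-negative nuclei).

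Calcium pumps and stores had calls in both directions. In NeuN-positive nuclei their median was -0.05, against -0.03 over all genes, of which 6.55% were called higher and 3.68% lower. In NeuN-positive nuclei 3 of 24 rose, the inositol trisphosphate receptor gene Itpr2 (2 ± 0.45, adjusted p = 0.0127), Orai1 of store-operated entry (1.35 ± 0.35, adjusted p = 0.0257) and the store pump gene Atp2a3 (1.49 ± 0.39, adjusted p = 0.0265). The 3 that fell were Stim1, the store sensor gene (-1.59 ± 0.38, adjusted p = 0.0186), Ryr3, a calcium release channel gene (-1.47 ± 0.38, adjusted p = 0.0259), and the sodium-calcium exchanger gene Slc8a2 (-0.81 ± 0.22, adjusted p = 0.0344). In NeuN-negative nuclei 6 of 24 rose, among them Orai1 (1.27 ± 0.30), Itpr3 (1.12 ± 0.27) and Atp2a3 (1.53 ± 0.37), and 3 fell, Stim1 (-1.65 ± 0.43), Atp2a2 (-1.02 ± 0.32) and Slc8a3 (-0.86 ± 0.29). Over all genes in that sort 15.1% were called higher and 12.6% lower. The median of the list was 0.38, against 0.05 over all genes.

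Calcium sensors and buffers fell for 3 of 18 in NeuN-positive nuclei and rose for 0 (3 higher at an unadjusted p under 0.05). The 3 were the neuronal sensor gene Hpca (-1.23 ± 0.28, adjusted p = 0.0147), the calmodulin gene Calm3 (-0.94 ± 0.23, adjusted p = 0.0221) and the buffer gene Calb1 (-0.87 ± 0.25, adjusted p = 0.0392), against 2 of 18 without the 3 pairs. In NeuN-negative nuclei 2 of 18 rose, the kinase genes Camk4 (1.63 ± 0.36) and Camk2d (0.97 ± 0.33), and 2 fell, Camk2g (-2.18 ± 0.41) and the sensor gene Ncald (-1.27 ± 0.31), against 1 higher and 2 lower without the 3 pairs. Over all genes tested there 15.1% were called higher and 12.6% lower. Of the 5 calcium-activated potassium channel genes 0 were called in NeuN-positive nuclei (0 at an unadjusted p under 0.05). In NeuN-negative nuclei Kcnma1, the BK channel gene, rose by 1.92 ± 0.64 (adjusted p = 0.0361) and Kcnn1, an SK channel gene, fell (-1.57 ± 0.47, adjusted p = 0.0222), against 0 higher and 1 lower without the 3 pairs.

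**Figure D4:**
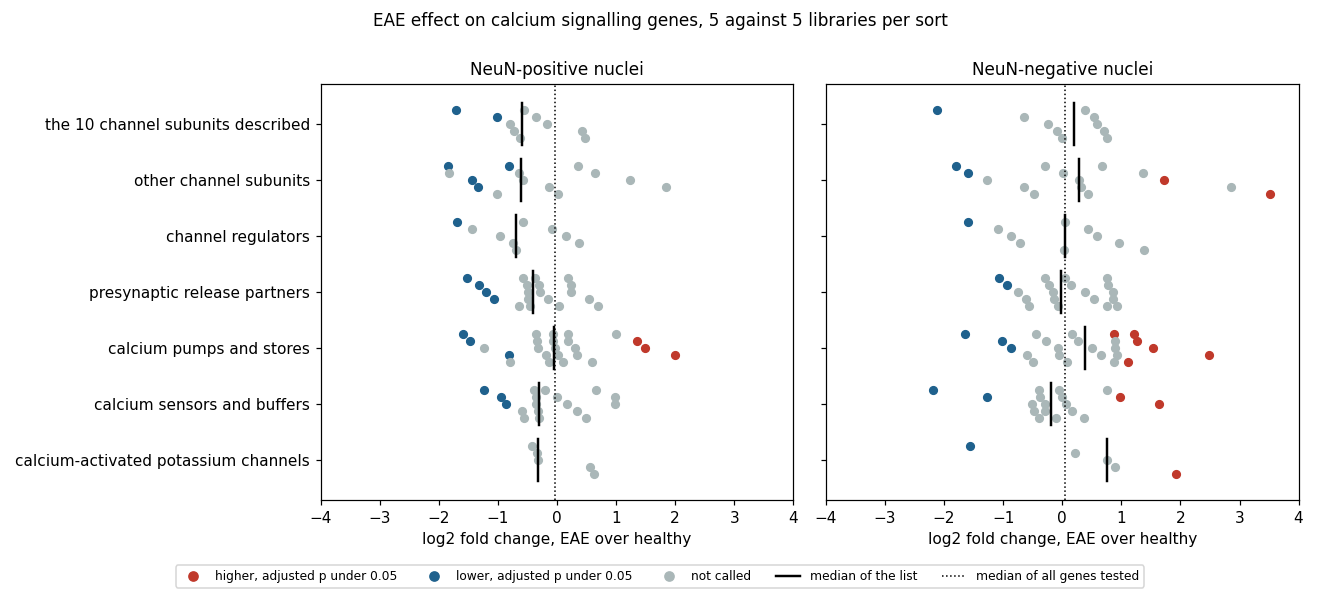
Log2 fold change of EAE over healthy (horizontal axis) of each gene tested, by list (rows), in NeuN-positive (left panel) and NeuN-negative nuclei (right panel), with calls in colour, list medians as bars and the median of all genes as a dotted line. In NeuN-positive nuclei the median of the 10 genes (-0.59) and of the other channel subunits (-0.61) lie left of that of all genes (-0.03). The median of the 8 alpha-1 genes was -0.67, and -0.36 without the 3 pairs of high mitochondrial share.

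The genes whose levels were most like each member's were found by Pearson's r of log2 CPM over the 20 libraries, which share the sort and the condition as sources of spread, among 14104 genes. Cacna1h was closest to Mthfsd (r = 0.956) and Ly6h (0.952). Ly6h stood at 124 CPM in EAE and 497 CPM in healthy NeuN-positive nuclei. Cacna1d was closest to Evl (0.973) and Slc27a2 (0.939), and Cacnb4 to Ksr1 (0.956) and Epb41l3 (0.953). Epb41l3 stood at 122 CPM in EAE and 640 CPM in healthy NeuN-negative nuclei. Cacna1i was closest to Sptbn4 (0.992) and Hrh3 (0.99). Sptbn4, which encodes an axonal spectrin, stood at 2817 CPM in EAE and 1635 CPM in healthy NeuN-positive nuclei. For the other members the 2 closest genes were Mir124a-1hg and Dpysl4 for Cacna1a (0.988 and 0.986), Ptpn5 and Rasgrf1 for Cacna1b (0.991 each), Zfyve28 and Fam189b for Cacna1c (0.956 each), Cit and Crhr1 for Cacna1e (0.987 and 0.985), Iqsec3 and Cit for Cacna1g (0.99 each) and C2cd4c and Zfp941 for Cacnb2 (0.956 and 0.95).

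All 10 genes are annotated as protein coding in GENCODE M21 on GRCm38. Cacna1h (ENSMUSG00000024112) lies on chromosome 17, 25374285 to 25433783, minus strand, with 9763 exon bases in 35 blocks. Cacna1d (ENSMUSG00000015968) lies on chromosome 14, 30039939 to 30491455, minus strand, with 12621 exon bases in 52 blocks. Cacnb4 (ENSMUSG00000017412) lies on chromosome 2, 52428320 to 52676831, minus strand, with 8963 exon bases in 19 blocks. Whether counting used strand is not stated in the sources, and reads of genes that overlap on opposite strands may be mixed. Cacna1d shares 589 exon bases with Chdh on the opposite strand, which had 5475 counts over the 20 libraries. Cacna1h shares 158 exon bases with Tpsg1, which had 129 counts, and Cacnb4 shares 1433 with A430018G15Rik, which had 209 counts. Counts of the members in a single library ran from 27 for Cacna1i in EAE NeuN-negative 2 to 22483 for Cacna1g in healthy NeuN-positive 2.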

How the data were processed

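RNA was sequenced from 20 libraries of sorted spinal cord nuclei, from poly A RNA with TruSeq kits per the labels' protocols. The authors deposited 1 table of raw counts per gene. The submitters' processing notes name STAR 2.4, DESeq2 and the builds GRCm39 and mm10 without their roles, while counting tool, annotation and strand setting are not stated there. Of the 43629 genes, 1167 had no symbol in the table of names and took 0.2515 to 0.4144% of the counts.

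Groups came from the labels. The counts as deposited went into edgeR 4.0.16 (R 4.3.3), with its filterByExpr filter, TMM factors and robust quasi-likelihood test, within each sort or condition, and over all 20 libraries for the difference of EAE effects, with Benjamini-Hochberg adjustment over all genes tested. The fits were tested on simulated data. Alternatives were DESeq2 1.42.0, its size factors, limma 3.58.1 voom, other filters, the replicate block, all libraries in 1 fit and each library left out, and, added after seeing the data, the omission of 3 pairs of libraries (mitochondrial counts over 2% in the NeuN-positive library), and that share as a covariate. In the tests of EAE against healthy within a sort, the block joined libraries of equal number from both conditions. The labels give no ground for that link. Figures were drawn with matplotlib 3.10.9.

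The members and gene lists were chosen with earlier results of these data known. All 10 members are named, of each list up to 3 called genes per direction by smallest p, all other channel subunits tested, and the 2 genes most like each member. No replicate pair was identical. The closest were healthy 1 and 2, with a chi-square per gene of 11.1 in NeuN-positive and 16 in NeuN-negative nuclei. Over all 40 pairs within a group the values reached 393. Whether healthy 1 and 2 are independent was not tested. Libraries of the same replicate number deviated together across the sorts (correlation 0.174 to 0.446 in EAE and 0.366 to 0.751 in healthy mice, all above 0.1; at most 0.206 in EAE and 0.409 in healthy mice between different numbers), so the number was taken to pair the sorts. Some pairs of different number also passed 0.1, and the highest of them exceeded the lowest of equal number in both conditions. The pairing is therefore an assumption. The main fits did not use this pairing. Total counts were 7072200 to 18686997 in EAE and 12076860 to 30499828 in healthy NeuN-positive, and 3149209 to 15525441 in EAE and 8336330 to 37689267 in healthy NeuN-negative libraries.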

Additional observations from a re-analysis of the deposited data

Results flagged for a closer look

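Each of the 40 sets of 5 values (10 genes in 4 groups) was searched for a library far from the others, by Dixon's 95% critical value of 0.71 for the gap over the range; chance alone gives about 1 in 20. Of these, 4 were found, all in NeuN-positive nuclei. EAE 3 stood high for Cacna1h at 129 CPM (nearest 51 CPM) and for Cacna1d at 76.8 CPM (nearest 37.9 CPM), the 2 genes that fell. EAE 2, of high mitochondrial share, stood low for Cacna1e at 250 CPM (nearest 494 CPM). Healthy 3, also of high mitochondrial share, stood low for Cacnb2 at 49.3 CPM (nearest 65.9 CPM).

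The effect of EAE differed between NeuN-positive and NeuN-negative nuclei, by the test of that difference, for Cacna1d (-1.58 ± 0.42, adjusted p = 0.0393) and Cacnb4 (2.07 ± 0.48, adjusted p = 0.0219), on the log2 scale with edgeR's quasi-likelihood test. The call of Cacna1d held in only 12 of 28 alternatives, and that of Cacnb4 in 22.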

How the results depend on the processing

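Among the members' fold changes, 931 values under alternatives kept direction and side of the threshold, 52 lost and 25 gained a call, and 32 changed sign. The cause of these shifts was not tested. In NeuN-positive nuclei the members called in EAE, 0 higher and 2 lower, were 2 and 6 with voom, which called 22.9% of all genes higher and 23.3% lower. Of the lower, 1 was left with the replicate block, without the 3 pairs of high mitochondrial share and with that share as a covariate, and 1 to 4 on leaving out a library. Over all genes 2.46%, 1.83% and 0.84% were lower in those 3 settings, against 3.68% in the main fit. On leaving out a library 1.06% to 8.64% of all genes were lower. In NeuN-negative nuclei, with 0 higher and 1 lower, 1 was higher with DESeq2 size factors, the DESeq2 Wald test and the filter of 1 CPM, 3 were higher and 3 lower with voom, 2 were lower with all 20 libraries, and 1 to 2 were lower on leaving out a library. Voom called 25.7% of all genes higher and 25.9% lower in that sort. The size factors, Wald test and filter called 15.3%, 20.7% and 15.1% of all genes higher. The fit of all 20 libraries called 18.5% lower. For the difference of EAE effects, with 1 higher and 1 lower, 4 were lower with voom, 0 with no filter and 2 with the replicate block, which pairs the sorts, and 0 to 1 in each direction on leaving out a library. Over all genes 9.12% were lower with voom and 2.45% with the block. The block changed no other count of members called by over 1.5 times.

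Changes of sign were found where no call was made. In NeuN-negative nuclei Cacna1b (-0.01) had 0.02 with DESeq2 size factors and the Wald test, 0.22 with voom, 0.01 with the filter of 1 CPM, 0.03 without the 3 pairs and -0.19 to 0.07 on leaving out a library. There Cacna1g had -0.01 with no filter, Cacna1e -0.1 and Cacnb2 -0.12 with the covariate, and Cacna1c -0.35 to 0.01 on leaving out a library. For the difference of EAE effects Cacna1i (0.03) had -0.19 with DESeq2 size factors, -0.18 with the Wald test, -0.72 with voom, -0.01 with the replicate block, -0.43 without the 3 pairs and -0.45 to 0.24 on leaving out a library. Cacnb2 (-0.06) had 0.37 with voom, 0.04 with no filter, 0.08 with the block, 0.47 without the 3 pairs and -0.38 to 0.32 on leaving out a library, and Cacna1c had 0.22 without the 3 pairs. With DESeq2 size factors, Cacna1b stood at 324 CPM in healthy NeuN-positive and Cacna1d at 29.3 CPM in EAE NeuN-negative nuclei.

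Over all genes, 1092 were higher and 613 lower in EAE NeuN-positive nuclei, against 3823 and 3882 with voom, 1746 and 1247 with the Wald test, 738 and 411 with the block, 1249 and 317 without the 3 pairs and 644 and 140 with the covariate. In NeuN-negative nuclei 2650 were higher and 2220 lower, against 4517 and 4552 with voom, 5618 and 3017 with no filter, 1476 and 665 with the covariate and 3239 and 3786 with all 20 libraries. For the difference of EAE effects 356 were higher and 168 lower, against 236 each with DESeq2 size factors, 654 and 865 with the Wald test, 3066 and 1864 with voom, 183 and 85 with no filter, 1992 and 500 with the block and 363 and 362 without the 3 pairs. On leaving out a library, NeuN-positive nuclei gave 677 (without healthy 2) to 1721 (without healthy 3) higher and 178 (without EAE 5) to 1462 (without EAE 3) lower, and NeuN-negative nuclei 1796 (without healthy 2) to 4011 (without healthy 3) and 1370 (without EAE 5) to 2806 (without EAE 3). The difference of EAE effects gave 63 (without NeuN-positive EAE 5) to 754 (without NeuN-negative EAE 3) higher and 21 (without NeuN-negative healthy 2) to 353 (without NeuN-negative healthy 3) lower, and the sort in EAE mice 1731 (without NeuN-positive EAE 5) to 3482 (without NeuN-positive EAE 2) lower, against 2662. Counts of a member in EAE NeuN-negative libraries went down to 27.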
